A study of Caenorhabditis elegans with 2 samples.

Results

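Nuclear hormone receptors are transcription factors that bind DNA through a zinc-finger domain and are regulated, in many cases, by small fat-soluble molecules such as steroids, fatty acids and their derivatives. In Caenorhabditis elegans the family is greatly expanded, mostly through duplication of an ancestor related to vertebrate HNF4, and many of its genes lie in groups on chromosome V. A few members have clear counterparts in insects and vertebrates and act in moulting, cell fate and metabolism. For most members no ligand is known.

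The genes described are the 269 protein-coding genes whose symbol is nhr followed by a number, of 19973 protein-coding genes on the nuclear chromosomes in the Ensembl annotation of WBcel235. They were set against peak lists for F33H1.4, a protein annotated with a C2H2 zinc finger, mapped by chromatin immunoprecipitation followed by sequencing (ChIP-seq). The worms were of strain RW12303, in which CRISPR was used to insert TY1, EGFP and 3xFLAG sequences into F33H1.4 itself on chromosome II (allele st12303), and the protein was precipitated with an antibody to GFP. Both biological replicates were whole young adults of 62.5 hours from larvae synchronised by starvation in the first stage, and there was no second group. Whole worms pool every tissue, so a peak in a few cells and a weak peak in many cannot be told apart. All values come from 1 tagged strain, and no untagged or control library was analysed here. The depth of each library is unknown from the lists.

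A promoter summit was a peak summit from 1000 bp upstream to 200 bp downstream of any annotated 5' end of a gene. The signal is the authors' own value for a peak, and since nothing states that lists share a scale it only ranks peaks within 1 list. The authors' thresholded lists keep regions with an irreproducible discovery rate, the expected share of irreproducible regions, of about 0.01. The list made from both replicates, called the series list, held 3250 peaks, and a companion that the authors call conservative held 3165. The lists of replicate 1 and replicate 2 held 2219 and 2733 peaks. Each thresholded list has an unthresholded parent, which held 51479 regions for the series, 33529 for replicate 1 and 30974 for replicate 2.

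In the series list 6 of the 269 nhr genes had a promoter summit, nhr-86, nhr-47, nhr-142, nhr-247, nhr-61 and nhr-255. This was 2.23% of nhr genes (exact 95% interval 0.823 to 4.79%, counting error only), against 12.8% of all protein-coding genes. Each other list gave a low count too. The conservative list gave 7 nhr genes, or 2.60%, against 12.5% of all genes. Replicate 1 gave 4 nhr genes, or 1.49%, against 9.95% of all genes, and replicate 2 gave 6, or 2.23%, against 12% of all genes. A promoter summit was present in both replicates for 4 nhr genes, or 1.49%, against 1869 of all genes, or 9.36%. Over the 4 thresholded lists 8 nhr genes had one, the 6 above with nhr-48, in the conservative list alone, and nhr-41, in that of replicate 2 alone.

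The sequence around 5 of the 6 summits is given first, because they differ in kind, and reaches 50 bp to each side of the summit. Each is shown along the strand of its nhr gene, with letters from the RefSeq genome of WBcel235. The first 4 lie on chromosome V, and their capitals mark CGCCA on either strand, with the G before it where the longer word GCGCCA is present. The nhr-86 window is chrV:2067585-2067685 on the minus strand and the nhr-142 window is chrV:5791030-5791130 on the minus strand. The nhr-47 window, chrV:5505187-5505252 on the plus strand, stops before the transcript starts. The nhr-247 window is chrV:15322111-15322211 on the plus strand. In the nhr-255 window, chrX:15742033-15742133 on the plus strand, the capitals mark a tRNA gene for leucine. The window not shown, that of nhr-61, holds no CGCCA on either strand.
nhr-86: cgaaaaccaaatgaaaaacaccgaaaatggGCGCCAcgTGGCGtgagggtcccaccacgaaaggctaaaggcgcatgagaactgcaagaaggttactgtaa
nhr-47: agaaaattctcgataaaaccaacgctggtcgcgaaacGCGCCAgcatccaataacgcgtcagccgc
nhr-142: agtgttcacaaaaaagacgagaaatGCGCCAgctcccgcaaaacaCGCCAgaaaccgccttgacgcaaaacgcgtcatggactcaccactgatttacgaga
nhr-247: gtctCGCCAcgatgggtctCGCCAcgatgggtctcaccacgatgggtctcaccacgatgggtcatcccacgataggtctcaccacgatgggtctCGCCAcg
nhr-255: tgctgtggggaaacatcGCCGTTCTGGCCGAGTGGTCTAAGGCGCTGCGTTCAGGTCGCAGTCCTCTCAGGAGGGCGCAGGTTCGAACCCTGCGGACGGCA

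The strongest promoter peak of the family was that of nhr-86, which encodes an HNF4-like receptor known from work on the response to a bacterial phenazine. Its peak, chrV:2067467-2067790, had a signal of 1101.71 and rank 288 in the series list, with 379.254 in replicate 1 and 730.122 in replicate 2. The summit lay 785 bp upstream of nhr-86 and 814 bp upstream of lbp-9, a gene of the fatty acid binding protein family on the other strand. It thus sat near the middle of the 1599 bp between the 5' ends of both genes. In the sequence above the same CGCCA stands on both strands, separated by a single CG, and CACGTG, the core of the E-box, overlaps both copies.

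A second shared summit lay between nhr-47 and dnj-19, which encodes a DnaJ-type co-chaperone. The peak, chrV:5505106-5505370, had a signal of 484.89 and rank 704 in the series list, with 234.948 in replicate 1 and 251.752 in replicate 2. Its summit was 16 bp upstream of the nhr-47 transcript and 380 bp upstream of dnj-19, and a non-coding RNA gene, C24G6.10, also covers it. The 5' ends of nhr-47 and dnj-19 are 396 bp apart. On the other side hpo-15, the next protein-coding gene, also had a promoter summit.

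The summit at nhr-142 was nearer to its neighbour than to nhr-142. The peak, chrV:5790998-5791185, had a signal of 254.389 and rank 1138 in the series list, with 114.696 in replicate 1 and 137.24 in replicate 2. It lay 527 bp upstream of nhr-142 and 150 bp upstream of F44E7.9, annotated in RefSeq as a Rab5-interacting protein, on the opposite strand. The gap between both genes is 677 bp.

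At nhr-247 the peak lay over a tandem repeat. The peak, chrV:15321955-15322358, had a signal of 266.026 and rank 1095 in the series list, with 121.449 in replicate 1 and 152.115 in replicate 2. The summit was 821 bp upstream of nhr-247 and in no other gene's promoter window. The window shown above matched itself at 88.4% of positions when shifted by 15 bp, and the repeat of that period ran over 904 bp, chrV:15321422-15322325, which is about 60.3 copies. A 15 bp unit from near the summit has 344 exact copies in the genome, counted on both strands, of which 11 are in this repeat. Reads from such copies can align to more than 1 place, here or elsewhere, and how the authors treated them is not given in the sources used here. The same gap, between nhr-291 and nhr-247, held a pair of weaker series peaks with signals of 94.9689 and 89.8461, farther than 1000 bp from nhr-247. Of the 6 genes, nhr-247 alone stood next to another nhr gene.

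The remaining pair of series summits was weaker and less even between replicates. The peak of nhr-61, chrII:14817334-14817673, had a signal of 115.982 and rank 2127 in the series list and 84.6546 in the replicate 2 list. In replicate 1 a region of 35.8646 was present below the threshold (score 551, where the lists start at 830). The summit was 152 bp upstream of the innermost of 3 annotated 5' ends and within the span of the longer transcripts. All bases within 50 bp of it are soft-masked as repeat or low-complexity sequence in the RefSeq genome.

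The peak of nhr-255, chrX:15741913-15742252, had a signal of 96.9442 and rank 2468 in the series list and was in neither replicate's thresholded list. Below the threshold it had 56.7811 in replicate 1 (score 811) and 39.3458 in replicate 2 (score 495). The summit was 527 bp upstream of nhr-255 and inside the tRNA-Leu gene ZK678.t1, which fills most of the window shown above. The letters GTTCGA, the core of the internal promoter element of tRNA genes called the B box, stand in it.

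The other 2 genes had a thresholded summit in 1 list each. For nhr-48, related to DAF-12 and to the vertebrate vitamin D receptor, the conservative list gave chrX:15707476-15707815 with a signal of 77.78 and a score of 905. The same region had a score of 592 in the unthresholded series list, and signals of 39.0844 in replicate 1 and 36.5084 in replicate 2 were both below the threshold. Its summit and that of nhr-255 were 34.437 kb apart, with 5 protein-coding genes between. For nhr-41, related to the vertebrate testicular receptors, replicate 2 alone gave a summit with a signal of 22.6934, chrIV:1385489-1385828, at rank 2684 of 2733. A stronger region at nhr-41 had 79.988 in the unthresholded series list, 32.2675 in replicate 1 and 49.1444 in replicate 2. The series summit of that region lay 12 bp from a tRNA-Glu gene, and the region did not pass the threshold in any list. Its scores were 351 in the unthresholded series list, 772 in the parent of the conservative list, 51 in replicate 1 and 823 in replicate 2. The lists start at 830.

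**Figure D1:**
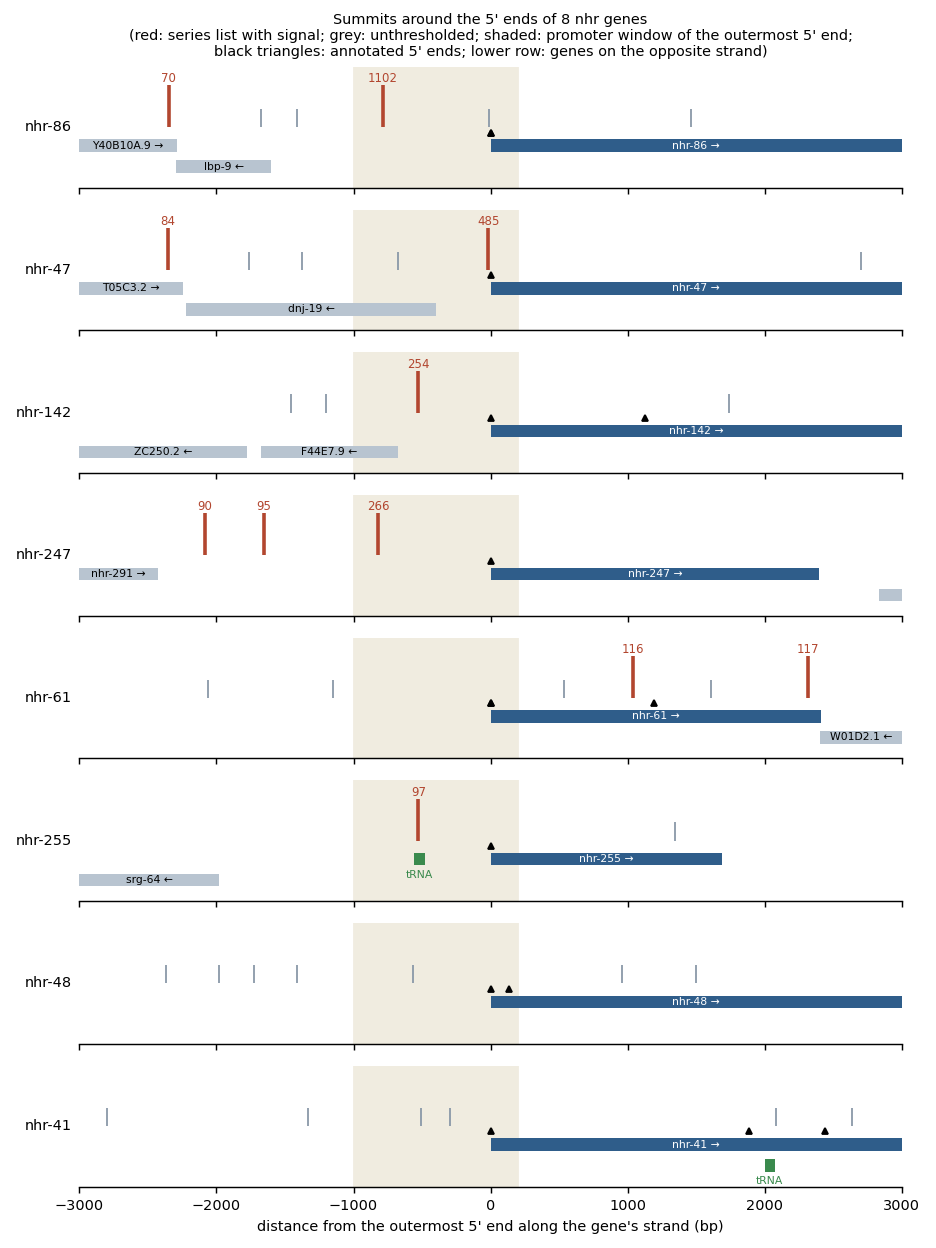
Summits within 3000 bp of the outermost 5' end of the 8 nhr genes with a promoter summit in any thresholded list; the x axis is the distance in bp along the gene's strand, red lines are series peaks labelled with their signal and grey lines are unthresholded regions. The summits of nhr-86, nhr-47 and nhr-142 lie between a divergent pair of genes, that of nhr-255 lies on a tRNA gene, that of nhr-247 has 2 more series peaks upstream, and nhr-48 and nhr-41 have no series peak.

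The replicates thus separate the called genes into a group of 4, nhr-142, nhr-247, nhr-47 and nhr-86, that passed the threshold in every list, and 4 that did not. In the unthresholded lists 80 nhr genes had a region in replicate 1 and 63 in replicate 2, against 41.4% and 40.1% of all genes. Only 37 nhr genes, or 13.8%, had one in both, against 29% of all genes. For 30 of the 37 at least 1 region of replicate 1, of any strength, overlapped a region of replicate 2. Such overlap was not counted over all genes. A region in at least 1 replicate was listed for 106 nhr genes, or 39.4%, against 52.5% of all genes. For the other 163 nhr genes, or 60.6%, neither replicate listed any region.

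**Figure D2:**
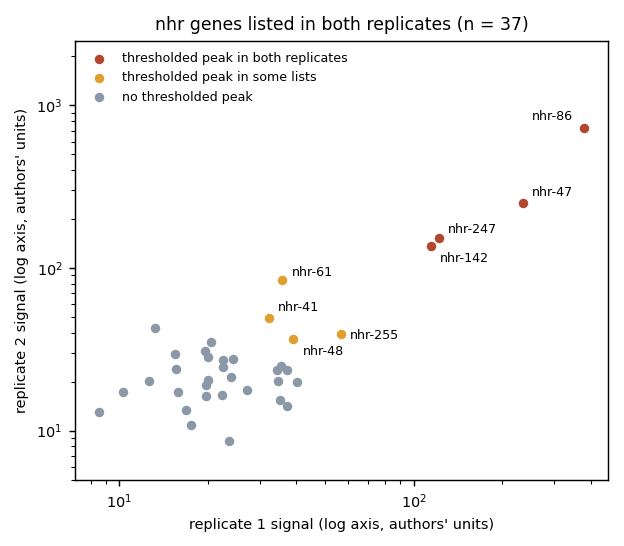
Strongest unthresholded promoter signal in replicate 2 (y axis) against replicate 1 (x axis), both log axes in the authors' units, for the 37 nhr genes listed in both replicates; red points have a thresholded peak in both, yellow points in some lists and grey points in none. The 4 red points, nhr-142, nhr-247, nhr-47 and nhr-86, lie above 100 in both replicates and all other points below it.

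Below the threshold 80 further nhr genes had a listed region in the unthresholded series list, which brings the count to 86 of 269, or 32.0% (exact 95% interval 26.4 to 37.9%), against 46.8% of all genes. The parent of the conservative list gave 84 nhr genes, against 47.5% of all genes. The regions were weak. The median of the strongest promoter signal over the 86 nhr genes was 33.7, at percentile 68.3 of the list, against 41.1, at percentile 79.9, over all genes with a region. A signal of at least 20 was reached by 71 nhr genes, or 26.4%, against 42.1% of all genes. A signal of at least 100 was reached by 5 nhr genes, or 1.86%, against 11.3% of all genes, and of at least 500 by 1, nhr-86, or 0.372%, against 4.27%. The gap between nhr genes and all genes was therefore wider, as a ratio, at high signals than over all listed regions.

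**Figure D3:**
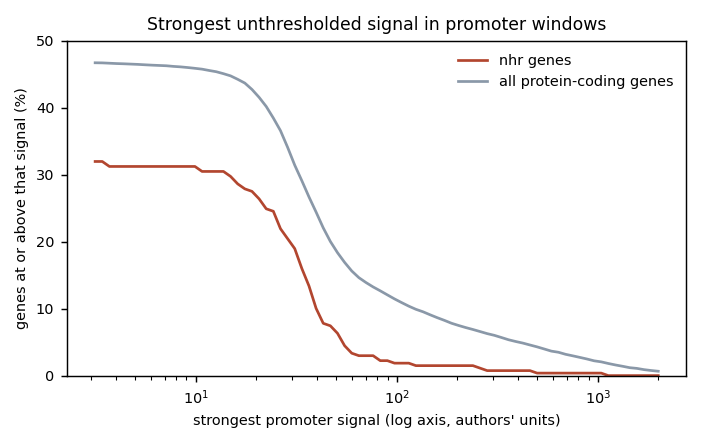
Share of genes (y axis, %) whose strongest promoter signal in the unthresholded series list is at or above the signal on the x axis (log axis, authors' units), for 269 nhr genes and 19973 protein-coding genes. At the lowest signal plotted, 3.162, the nhr curve starts at 32.0% and the curve of all genes at 46.7%, and the nhr curve stays below at each signal plotted.

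The 8 strongest of the nhr genes with no thresholded summit had signals of 52.0095 to 60.4753 in the unthresholded series list, and their replicates did not rank them alike. All values given for them are from the unthresholded lists. The first, nhr-105, had 60.4753 in the unthresholded series list, 35.4635 in replicate 1 and 24.9713 in replicate 2, from regions 238 bp and 958 bp upstream of a 5' end that do not overlap. The next, nhr-85, related to the Rev-erb receptors and known from the timing of larval development, had 56.4082 in the unthresholded series list, 15.5128 in replicate 1 and 29.4882 in replicate 2. Its strongest regions in the replicates did not overlap either, lying 924 bp upstream of a 5' end in replicate 1 and 200 bp downstream of one in replicate 2. At nhr-193 the values were 55.4731 in the unthresholded series list, 34.3097 in replicate 1 and 23.6004 in replicate 2. That series summit lies inside a tRNA-Asn gene, F57G8.t2, and its score of 823 was just under 830. The other 5 were nhr-121, nhr-15, nhr-25, nhr-32 and nhr-277, with 37.1658, 37.1718, 35.0497, 40.2795 and 13.2464 in replicate 1 and 23.741, 14.1453, 15.5174, 19.8403 and 42.8095 in replicate 2. Of these, nhr-25, the counterpart of Ftz-F1 that acts in moulting and in epidermal and gonadal development, was also the nhr gene farthest from any series summit, at 486563 bp.

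A tRNA gene stood in the promoter window of 3 nhr genes, nhr-255, nhr-41 and nhr-193, and in the window of 145 of all genes. All 3 had an unthresholded series summit within 200 bp of that tRNA gene, and 1 had a series peak there. Among all genes with a tRNA gene in the window, 34.5% had a promoter summit in the series list and 79.3% an unthresholded one. Of the 266 nhr genes without a tRNA gene there, 5 had a promoter summit and 83 an unthresholded region, against 12.6% and 46.6% of all genes without one. What part the tRNA genes have in these summits was not tested.

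The letters at the summits were then counted on both strands in windows of 50 bp to each side. CGCCA was present at 4 of the 6 nhr summits, those of nhr-86, nhr-47, nhr-142 and nhr-247, and GCGCCA, which contains it, at the first 3. Both words were chosen after these sequences had been seen, so their counts carry no weight as a test. CGCCA was at 29.0% of all 2030 promoter summits of the series list and GCGCCA at 13.6%. In windows of the same length centred 150 bp upstream of the 5' end, CGCCA was in 8.75% of the 263 nhr promoters without a summit and in 7.25% of all protein-coding promoters, and GCGCCA in 3.04% and 1.94%. At nhr-247 the copies of CGCCA belong to the tandem repeat.

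Of 7 words listed for the purpose, AGGTCA, the half-site that many nuclear receptors bind, was at none of the 6 nhr summits and at 2.22% of all promoter summits. CACGTG was at nhr-86 alone (2.46% of all promoter summits), CGCGC at nhr-47 alone (35.3%) and GTTCGA at nhr-255 alone (4.43%). GAGAGA was at none of the 6 nhr summits and at 10.3% of all promoter summits. A run of 7 T, TTTTTTT, was likewise at none and at 12.1%. The same held for TGATAA, with 3.35% of all promoter summits. The windows were rich in G and C, with a median of 53.0% at the nhr summits, from 34.7% at nhr-61 to 64.4% at nhr-255, against 44.6% at all promoter summits. Promoter windows of nhr genes without a summit and of all genes both had a median of 33.7%. A tandem repeat like that of nhr-247, with at least 70% self match at a shift of 10 to 30 bp, was present at 1 of the 6 nhr summits, 0.739% of all promoter summits and 3.78% of all series summits.

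Chromosome V holds 167 of the 269 nhr genes, or 62.1%, against 25% of all protein-coding genes. There 4 nhr genes had a promoter summit, or 2.40% (exact 95% interval 0.656 to 6.02%), against 7.23% of all genes on that chromosome. On chromosome II it was 1 of 15 nhr genes, nhr-61, against 13.5% of all genes, and on chromosome X 1 of 23, nhr-255, against 1.57%. No nhr gene had one on chromosomes I (0 of 23), III (0 of 8) or IV (0 of 33), where all genes gave 21%, 22.8% and 14.4%. The upper ends of the exact intervals there were 14.8%, 36.9% and 10.6%, and on chromosome II the upper end was 31.9%. On chromosomes II and III the nhr genes are few, and the interval reached past the share of all genes. The intervals treat genes as independent although many nhr genes adjoin one another, so they are no test of the share on any chromosome. On chromosome X, where peaks are scarce for all genes, the nhr share was not below.

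**Figure D4:**
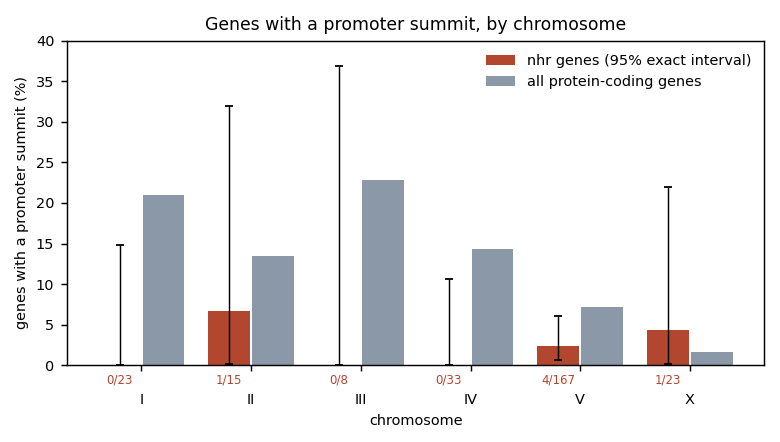
Share of genes with a promoter summit in the series list (y axis, %) on each chromosome (x axis), with nhr genes left (exact 95% interval, number called and number of nhr genes below) and all protein-coding genes right. The nhr share is the lower one on 5 chromosomes and the higher one on X, where it rests on nhr-255 alone.

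The 6 nhr genes with a summit were set against 25.8, the count if each of the 269 had one as often as all genes of its chromosome. The ratio was 0.232 (exact 95% interval 0.0856 to 0.499, counting error only), and it was 0.145 over the 102 nhr genes outside chromosome V. With genes also split into the outer and central parts of each chromosome the count at the shares of all genes was 25.3, and with the presence of a divergent neighbour added it was 20.4, a ratio of 0.294. For unthresholded regions 86 nhr genes had one, where the chromosome shares gave 112, a ratio of 0.770. Without regard to chromosome the share of all genes gave 34.3 nhr genes with a promoter summit.

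Within chromosomes the 6 nhr genes with a summit lay in the outer parts, where most nhr genes lie. Each chromosome was split into 3 equal sections. The outer sections held 197 nhr genes, or 73.2%, against 62.2% of all genes, and 6 of these had a summit. The central sections held 72 nhr genes and none had one. With 6 genes in all, a difference between sections was not tested. Among all genes the shares with a summit were 11.8% in the outer sections and 14.3% in the central ones. On chromosome V it was 4 of 126 outer nhr genes and 0 of 41 central ones, against 6.6% and 8.34% of all genes.

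The neighbours of nhr genes differed in arrangement from those of other genes. A divergent protein-coding neighbour with its 5' end within 1000 bp was present for 18 nhr genes, or 6.69%, against 17.5% of all genes. Of these 18, nhr-47 and nhr-142 had a promoter summit, or 11.1% (exact 95% interval 1.38 to 34.7%), against 33.4% of all genes with such a neighbour. Of the 251 nhr genes without one, 4 had a summit, or 1.59%, against 8.36%. For unthresholded regions it was 4 of the 18, or 22.2%, against 62.4% of all genes with such a neighbour. The nhr share was the lower one in both classes, and for promoter summits at the 18 genes the interval reached past the share of all genes.

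The upstream neighbour itself had a promoter summit for 10 nhr genes, or 3.72%, against 16% of all genes. Among the 6 nhr genes with a summit this was so for 3, nhr-86, nhr-47 and nhr-142, each time through the same summit. Among the 263 others it was so for 7, or 2.66%. Of the 16 nhr genes that had a divergent neighbour within 1000 bp but no summit, none had a neighbour with one. At that distance the windows of both genes largely overlap, so this count is nearly fixed by the window rule. Over all 3499 genes with such a neighbour, 1169 had a summit themselves and 1170 had a neighbour with one. These counts therefore say nothing of neighbours apart from the nhr genes themselves. With the limit at 2000 bp, nhr-86 and nhr-255 joined nhr-47 and nhr-142, so 4 of the 6 had a divergent neighbour within that distance. Such a neighbour was present for 44 of the 269, or 16.4%, against 25.7% of all genes.

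Many nhr genes stood side by side. Taken in order of start position, the protein-coding gene before or after was another nhr gene for 137, or 50.9%. By this rule nhr-138 and nhr-100, which are 100 bp apart, did not count as next to an nhr gene. Of the 137, 1, nhr-247, had a promoter summit, or 0.730%, against 4.03% of all genes next to an nhr gene, the 137 included. Of the 132 others, 5 had one, or 3.79%, against 13% of all genes that are not next to an nhr gene. Unthresholded regions were listed for 32 of the 137, or 23.4%, against 30.3% of all genes next to an nhr gene. They were listed for 54 of the 132, or 40.9%, against 47.2% of all genes not next to one. The genes of other families that adjoin an nhr gene numbered 335, and 18 of them had a promoter summit, or 5.37%, where the shares of their chromosomes gave 34.5, or 10.3%. Genes beside nhr genes thus also had a lower share than their chromosomes.

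**Figure D5:**
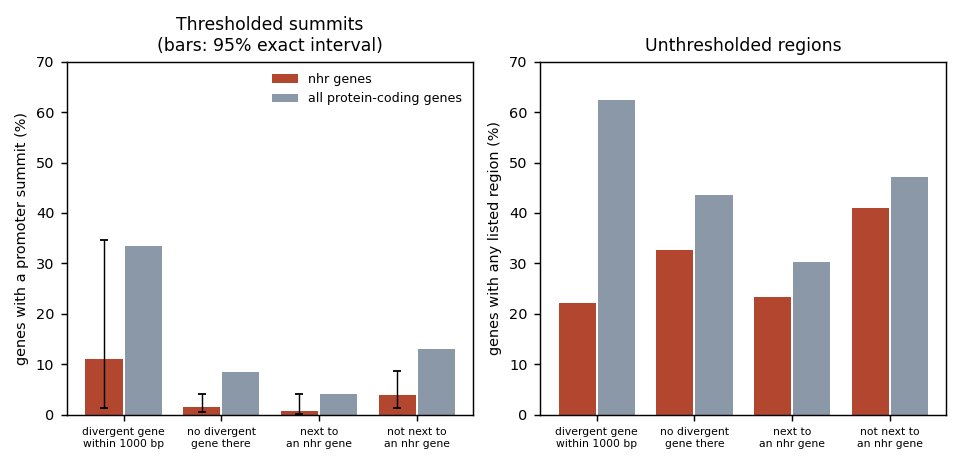
Share of genes (y axis, %) with a promoter summit in the series list (left panel, exact 95% intervals on the nhr bars) and with any region in the unthresholded series list (right panel), for genes with and without a divergent neighbour within 1000 bp and next to or not next to an nhr gene; nhr genes are the left bar of each pair and all protein-coding genes the right. The nhr bar is the lower one in each of the 8 pairs.

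The number of annotated 5' ends sets how much sequence a gene's windows cover, so it was taken into account as well. Of 174 nhr genes with 1 such end, 3 had a promoter summit, or 1.72%, against 10.4% of all such genes. Of 95 with 2 or more, 3 had one, or 3.16%, against 19.4%. For unthresholded regions it was 26.4% of nhr genes with 1 end, against 41.7% of all such genes, and 42.1% of nhr genes with 2 or more, against 61.1%.

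Distances gave the same order. The nearest series summit was a median of 51272 bp from a 5' end of an nhr gene (quartiles 20138 and 104842 bp), against 15288 bp for all genes. On chromosome V the medians were 74487 bp for nhr genes and 24563 bp for all genes. For 136 nhr genes, or 50.6%, no series summit lay within 50000 bp, against 23% of all genes. A series summit lay within 5000 bp of 22 nhr genes, or 8.18%, against 28.5% of all genes.

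Of these 22 genes 16 had no promoter summit, and the 4 given here were chosen after their values were seen. The nearest to the window was nhr-8, a relative of DAF-12 that acts in cholesterol homeostasis and resistance to foreign compounds, with a summit of 97.5429 at 1071 bp upstream. That summit was 133 bp from the 5' end of mrps-24, a gene for a mitochondrial ribosomal protein. At nhr-249 a summit of 137.998 lay 1811 bp upstream, and no 5' end was nearer to it than that of nhr-249. Summits of 193.739 near nhr-11 and 476.763 near nhr-2 were each within 300 bp of another gene, mppb-1 at 263 bp and hmg-3 at 136 bp.

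Counting gene bodies as well as promoters, the strongest peak at any nhr gene lay in an intron. It was in nhr-64, an HNF4-like receptor known from work on fat storage, at chrI:3105472-3106000, and the gene was named after its value was seen. The signal was 1312.25 with rank 211 in the series list, 438.192 in replicate 1 and 873.143 in replicate 2. The summit was 1304 bp downstream of the innermost of 4 annotated 5' ends and 3821 bp downstream of the outermost. The promoter windows of nhr-64 held nothing stronger than a region of 15.9888 in the unthresholded series list, so by the promoter rule nhr-64 counts as a gene without a summit. The window of 50 bp to each side held TGATAA and none of the other words counted, and its G and C content was 36.6%, below that of 5 of the 6 promoter summits.

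In all, 5 nhr genes, or 1.86%, had a series summit in the gene body outside every promoter window, against 2.58% of all genes. Besides nhr-64 they were nhr-19, nhr-61, nhr-119 and nhr-150, and these were named for having such a summit. The summit in nhr-19 was intronic, with 90.1406 in the series list and 53.7568 in replicate 2, and the replicate 1 list held none. That in nhr-150, with 91.2911, was intronic and over a tRNA gene. In nhr-119 a summit of 58.9634 in a coding exon and a summit of 32.5639 in an intron were in the replicate 1 list and not in that of replicate 2. A second summit in nhr-61, with 116.727, lay in a UTR at the 3' end, 713 bp from the 5' end of the next gene, W01D2.1. The conservative list held such summits in 2 nhr genes, nhr-64 and nhr-150, against 2.41% of all genes. The replicate 1 list held them in 3 nhr genes, against 1.44%, and the replicate 2 list in 4, against 1.9%. Only the nhr-64 peak had a signal above 150 among these.

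By role, the 9 receptors with a clear counterpart in insects or vertebrates were nhr-6, nhr-8, nhr-23, nhr-25, nhr-41, nhr-48, nhr-67, nhr-85 and nhr-91. None had a promoter summit in the series list, and 8, all but nhr-67, had an unthresholded region, with a median signal of 51.0. None of the 9 lies on chromosome V, and 8 have 2 or more annotated 5' ends, a class in which 61.1% of all genes had such a region. The shares of all genes are 12.8% for a promoter summit and 46.8% for an unthresholded region. In nhr-23, the counterpart of ROR that drives moulting, the unthresholded series signal was 48.8313, with 20.5483 in replicate 1 and 34.9497 in replicate 2. In nhr-6, the counterpart of NR4A receptors that acts in the spermatheca, the values were 38.4948, 19.5161 and 31.0925. For nhr-67, the counterpart of tailless, only replicate 1 listed a region, with 23.4129.

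Of the 10 receptors listed for metabolism and stress, nhr-86 alone had a promoter summit in the series list and 6 had an unthresholded region, beside 12.8% and 46.8% of all genes. In nhr-49, which controls fatty acid desaturation and breakdown, the unthresholded values were 51.5797 in the series, 22.505 in replicate 1 and 27.253 in replicate 2. In nhr-114, which acts in the methionine cycle and in the response to diet, they were 38.4459, 23.8979 and 21.24. In nhr-66, a partner of nhr-49, they were 37.2006, 23.6167 and 8.67651. For nhr-10 and nhr-68, both regulators of the propionate shunt, the unthresholded series list held no region, and replicate 1 listed 16.4527 for nhr-10. The 251 nhr genes outside both lists gave 5 promoter summits, or 1.99%, and 73 unthresholded regions, or 29.1%. Of 5 nuclear receptor genes with other names, daf-12, fax-1, odr-7, sex-1 and unc-55, none had a promoter summit, and daf-12 alone had a region in the unthresholded series list, of 4.79, with 27.8758 in replicate 2. For fax-1 replicate 1 alone listed a region, with 31.3722.

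Genes that work with the receptors were taken as 6 short lists. Of 4 cofactor genes 3 matched the annotation by symbol, and of these cbp-1, which encodes the p300/CBP acetyltransferase, had 1051.67 in the series list, 420.028 in replicate 1 and 630.114 in replicate 2. The gene din-1, whose product is a corepressor for DAF-12, had 78.6734 in the series list and 52.2174 in the replicate 2 list, and mdt-15, a Mediator subunit that binds the product of nhr-49, had no thresholded summit and 81.1 in the unthresholded series list, with 27.2329 in replicate 1 and 51.9706 in replicate 2. Of 5 genes around dafachronic acid synthesis, strm-1, a sterol methyltransferase, had 115.387, with the summit shared with cic-1. Of 5 lipid genes, fat-6, a stearoyl-CoA desaturase, had 71.121, with the summit shared with ZK822.9. Neither din-1 nor fat-6 was in the conservative list.

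In the pathways that nhr-10, nhr-68 and nhr-114 regulate, 1 of 5 propionate shunt genes and 2 of 6 methionine cycle genes had a promoter summit. The first was hach-1, with 217.903 in the series list, 111.227 in replicate 1 and 110.646 in replicate 2, from a summit shared with nmad-1. The others were mtrr-1, the methionine synthase reductase, with 1049.06 in the series list, 357.992 in replicate 1 and 701.464 in replicate 2, and metr-1, the methionine synthase, with 169.994, 88.8567 and 92.7518. Over the 6 pathway lists, receptors with other names included, 7 of 29 matched genes had a promoter summit, or 24.1%, beside 12.8% of all genes. Of the 7, din-1, fat-6 and strm-1 had none in the replicate 1 list. The lists are short and were chosen with earlier results of these data known, and the difference in share was not tested.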

How the data were processed

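F33H1.4 was mapped by ChIP-seq in 2 biological replicates of whole worms, and only peak lists on build ce11 (WBcel235) were used. The signal of each peak, its score and its −log10 q were computed by the authors and deposited in the lists. A further deposited column of the unthresholded lists holds the irreproducible discovery rate as −log10. The signal was used to rank and describe regions within a list. The aligner, the peak caller and the depth per library were not given in the sources used here, so filters on repeats and read quality are unknown. Per the notes deposited with the lists, each replicate's list came from alignments of that replicate and the series lists from those of both, with further inputs whose content is not stated. Each thresholded list was found whole in its unthresholded parent at a score of 830 or more. Of the regions at that score, 82, 65, 77 and 43 were not in the thresholded series, conservative, replicate 1 and replicate 2 lists, and the reason is not stated.

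Genes and their 29314 distinct 5' ends came from Ensembl release 115 and bases from the RefSeq WBcel235 genome. No chromosome length was exceeded by a peak. The upstream neighbour was the next protein-coding gene on the 5' side. Outer and central sections came from splitting each chromosome into 3 equal lengths. Assignment to windows was tested on simulated data. With 1 group and genes that are not replicates, no test was made. Intervals are exact (Clopper-Pearson, 95%) and cover counting error only. The members, lists and comparisons were chosen with earlier results of these data known. Named are the nhr genes with a thresholded promoter summit, the 8 strongest of the rest, genes in the lists by role, genes that share a summit, and pathway genes with a summit. Other nhr genes are said to be named after their values were seen. Alternatives were other lists, windows, assignments and distances. The tools were matplotlib 3.10.9, scipy 1.17.1, pandas 2.3.3 and numpy 2.4.6, under Python 3.11.15.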

Additional observations from a re-analysis of the deposited data

How the results depend on the processing

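Of 37 alternative settings, 25 left the value within 1.5 times for a count or within its error for a share, and 12 moved it. The count of 6 nhr genes with a promoter summit was 2, nhr-47 and nhr-61, in a window of 500 bp upstream to 100 bp downstream, and 4 to 8 under the other settings, against 8.52 to 15.6% of all genes. The authors' list of a single replicate, used here as an alternative setting, gave the 4 and 6 already reported. Assignment to the nearest 5' end lost nhr-142, the outermost 5' end alone lost nhr-61, and the window of 2000 bp added nhr-8 and nhr-249. Leaving out summits within 200 bp of a tRNA gene or on a tandem repeat, both chosen after seeing the data, gave 5 each. The ratio to the chromosome shares ran over 0.145 to 0.278. The share of nhr genes with an unthresholded region was 21.2% in the smaller window and 45.7% in the larger one, against 35.3% and 56.8% of all genes. In the unthresholded list of a single replicate it was 23.4 to 29.7%. The share with a divergent neighbour was 3.35% within 500 bp and 16.4% within 2000 bp, against 9.20% and 25.7% of all genes. The median distance was 52575 to 62315 bp with the list of a single replicate. Gene bodies with a summit numbered 2 in the conservative list, and 3 to 4 in the list of a single replicate. In windows of 100 bp to each side GAGAGA was at 1 nhr summit, TTTTTTT at 2 and CGCGC at 2. Smaller and larger windows cover fewer and more bases, and the cause of the other changes was not tested. No paired analysis was possible because there is 1 group. The 6 summits are too few to describe the family by sequence, and unknown depth limits any reading of a gene without a region.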
